A study of Homo sapiens with 6 samples.

Results

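Collagen and laminin chains are the building blocks of the fibres and basement membranes around cells. The rows examined here were all protein-coding genes of the deposited count table whose symbol is a collagen chain (COL, a type number, A and a chain number) or a laminin chain (LAMA, LAMB or LAMC with a number). This gave 55 of the 29122 genes in the table, 43 collagen and 12 laminin chains. They were grouped as 11 fibrillar chains, 20 basement membrane chains and 24 other chains. No row held COL10A1.

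The cells were A549, a human lung carcinoma epithelial line, and polyadenylated RNA was sequenced from 6 libraries made with a strand-directional protocol. In 3 control libraries the cells carried a lentiviral short hairpin RNA against the luciferase of fireflies, which has no counterpart in human cells. In 3 BCLAF1-depleted libraries they carried a lentiviral hairpin against BCLAF1, a nuclear factor implicated in splicing and transcriptional control. Both groups were stably transduced, the labels give no time after transduction and no hairpin sequence, and no library is labelled with another hairpin or with BCLAF1 restored. The title of the series names MED23, premature senescence and autophagy flux in lung cancer cells.

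Every collagen is a trimer of chains wound into a triple helix. Fibrillar collagens assemble into banded fibres, with type V collagen, built mainly from COL5A1 and COL5A2 chains, mixed into the type I fibres. Type IV collagen forms the sheet-like network of basement membranes, and laminins, each a trimer of an alpha, a beta and a gamma chain, form the other network there. Epithelial cells are anchored through a laminin that contains LAMA3 and LAMB3, together with the transmembrane collagen COL17A1 and the anchoring-fibril collagen COL7A1.

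Library totals ran from 33409158 to 43928927 counts, and 3 counts, taken as the least that depth resolves, equalled 0.0683 to 0.0898 CPM, the counts scaled to a common library size. This floor covers counting error only. BCLAF1 itself was at 211, 199 and 203 CPM in the control libraries and at 39.0, 35.7 and 53.1 CPM in the depleted ones, a log2 fold change of -2.26 ± 0.16 (SE, edgeR adjusted p = 2.305e-05), so the labels held in all 6 libraries. The control libraries resembled each other more closely (correlations of log2 CPM from 0.9938 to 0.9951) than the depleted ones did (0.9802 to 0.9845). Depleted library 1 lay between the controls and the other two depleted libraries on the main axis of variation, and depleted library 3 stood apart in mitochondrial transcripts, 19.3% of its counts against 10.5% to 11.4% in the other 5 libraries. Results that rest on either library are given with and without it. The labels do not say whether the libraries of a group are separate cultures, and the p-values therefore cover only the spread among these libraries, which may be technical.

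The cell type matched its label in part. Of 10 epithelial marker genes 8 were tested, 1 was higher (KRT19, log2 fold change 1.13, adjusted p = 0.0495) and none lower. Over all tested genes 17.8% were higher and 18% lower. KRT8 was at a mean of 16030 CPM in control and 16145 CPM in depleted libraries, and KRT18, KRT7, CDH1 and EPCAM were also well expressed. MUC1 averaged 6.89 CPM, KRT19 and CLDN4 averaged 0.448 CPM each, and the epithelial regulators ESRP1 and GRHL2 were below 0.1 CPM in both groups. Of 13 fibroblast marker genes 8 were tested, 1 was higher (S100A4, log2 fold change 1.55) and none lower, and PDGFRA, THY1, FAP, PDPN and DPT were too low to test. The summed FPKM of that list, most of it VIM and S100A4, was 390 to 433 in control and 434 to 579 in depleted libraries. Of 7 endothelial and 7 leukocyte markers, 2 each were tested, and their sums were 0.28 to 0.5 FPKM and 0.39 to 1.06 FPKM over all libraries. Both tested endothelial genes were called at about 1 CPM, CDH5 as higher (1.20, adjusted p = 0.00822) and PECAM1 as lower (-0.89, adjusted p = 0.0359), and neither leukocyte gene was called. The part of other cell types in the results below was not tested beyond these values.

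Of the 55 chains 37 had enough counts to be tested. In the BCLAF1-depleted libraries 8 of the 37 (21.6%) were higher and 13 (35.1%) lower at an adjusted p under 0.05, where 17.8% of all 15907 tested genes were higher, 18% were lower and 35.8% moved in either direction. The median log2 fold change of the 37 chains was -0.23, against 0.02 for all tested genes. In 9 of the 37 chains every depleted library lay above every control, beside 25.3% of all genes. In 16 of the 37 every depleted library lay below, beside 26.6% of all genes. The share of chains that rose was thus near that of all genes, and the share that fell was above it. Among genes with at least 7812 exon bases, which include 24 of the 37 chains, 30.1% were lower and 10.3% higher. In bulk RNA, fewer cells of a kind and less RNA per cell cannot be told apart.

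Summed over all chains, collagen RNA was 1163, 1107 and 1118 CPM in the control libraries and 562, 542 and 531 CPM in the depleted ones. Laminin RNA summed to 1666, 1594 and 1513 CPM against 1718, 1691 and 1965 CPM. The collagen total was lower in every depleted library than in any control, whereas the laminin total showed no such loss: it lay above the controls on this scale and overlapped them in FPKM (227 ± 9.03 and 228 ± 15.4, SD, n = 3 each). FPKM, fragments scaled by gene length and library size, is the authors' own per-length level, and here its scaling sets the depleted libraries lower than CPM does.

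**Figure D1:**
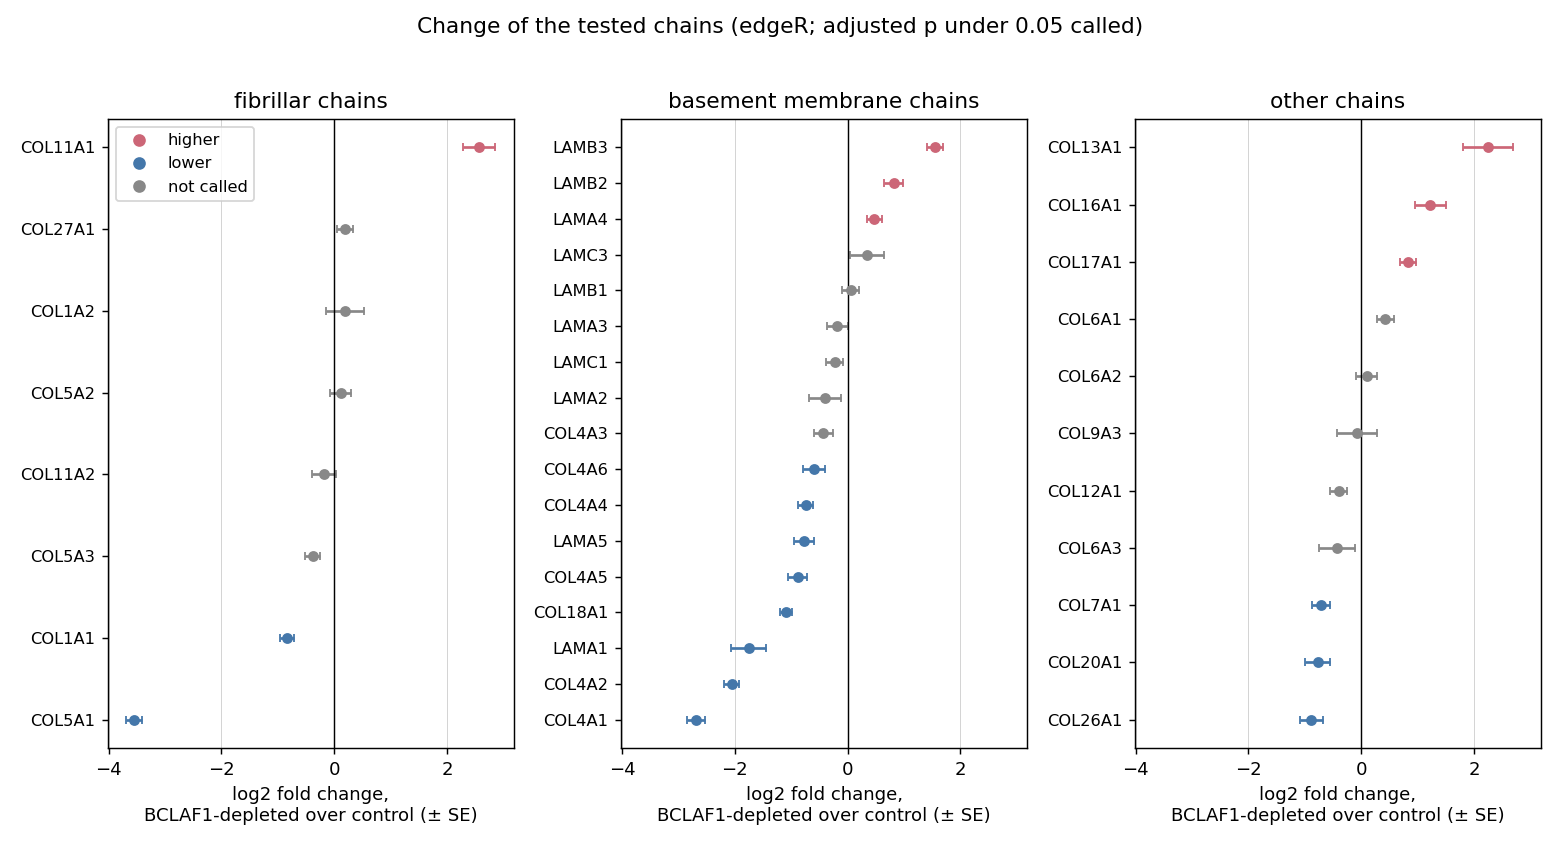
Log2 fold change of BCLAF1-depleted over control (x axis, ± SE) for the tested chains described here, in panels for fibrillar, basement membrane and other chains, coloured by call. COL5A1 (-3.55) and COL4A1 (-2.69) lie farthest to the left, and COL11A1 (2.57), COL13A1 (2.24) and LAMB3 (1.55) farthest to the right.

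Among the fibrillar chains 8 of 11 were tested, 1 rose, 2 fell and 5 did not pass, with a median log2 fold change of -0.03. These are 12.5% and 25% of the 8, beside 17.8% higher and 18% lower over all tested genes. COL5A1, the alpha-1 chain of type V collagen, was at 96.4, 88.3 and 84.3 CPM in the controls and at 7.47, 6.92 and 8.54 CPM in the depleted libraries. The groups were far apart, with every depleted library below 10 CPM. Its log2 fold change of -3.55 ± 0.14 (11.7-fold lower, adjusted p = 8.019e-07) was the largest of the 37 tested chains. Its partner COL5A2 did not follow: it was at 36.4, 34.1 and 36.8 CPM in controls and at 52.7, 31.2 and 32.4 CPM in depleted libraries, where library 1 was high and the other two lay just below the controls. COL5A2 gave 0.12 ± 0.19 on the log2 scale (adjusted p = 0.653) and was not called, and its value was -0.19 without depleted library 1. The third type V chain, COL5A3, was at 8.37, 7.69 and 7.57 CPM in controls and at 5.76, 6.54 and 5.82 CPM in depleted libraries. These values did not overlap, but the change of -0.38 ± 0.14 missed the threshold (adjusted p = 0.0536). COL5A3 passed in 6 of 22 alternatives, among them without depleted library 1 (-0.37, adjusted p = 0.048) or 2 (-0.44, adjusted p = 0.0438).

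The ratio of COL5A1 to COL5A2 inside each library does not depend on how libraries are scaled. In FPKM it was 2.15, 2.11 and 1.87 in the controls and 0.115, 0.18 and 0.214 in the depleted libraries. The alpha-1 chain was thus the more abundant of the pair in each control and the less abundant in each depleted library. COL5A1 made up 45.3% ± 1.71 of the summed fibrillar FPKM in controls and 6.79% ± 0.933 in depleted libraries (SD, n = 3), and COL5A2 took the first place there with 41.8% ± 9.89. Ratios without overlap give an exact two-sided permutation p of 0.1, the smallest that 3 libraries against 3 allow.

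COL5A1 lies on the plus strand at chr9:134641774-134844843 (GRCh38, GENCODE release 29). The 250 bases before its start in RefSeq (GRCh38.p14, chr9:134641553-134641802) are shown because this gene fell most, with 2 matches to the GC box (GGGCGG on either strand) in capitals:
COL5A1: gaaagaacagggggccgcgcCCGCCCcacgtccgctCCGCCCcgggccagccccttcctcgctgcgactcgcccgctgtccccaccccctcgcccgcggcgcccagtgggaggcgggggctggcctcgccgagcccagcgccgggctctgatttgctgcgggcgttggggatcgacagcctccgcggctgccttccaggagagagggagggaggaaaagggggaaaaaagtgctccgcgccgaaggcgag

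Type I collagen, the main collagen of connective tissue, was a minor transcript in these cells. COL1A1 was at 17.0, 17.9 and 18.2 CPM in controls and at 8.87, 10.6 and 10.2 CPM in depleted libraries, with no overlap and a change of -0.84 ± 0.13 (adjusted p = 0.00136). Its partner chain COL1A2 was low, at 0.416 to 0.543 CPM in controls and 0.371 to 0.675 CPM in depleted libraries. It rested on 13 to 24 counts per library and was not called. COL27A1, a fibrillar chain known from cartilage, was at 25.0, 23.7 and 25.1 CPM in controls and at 22.7, 31.3 and 30.1 CPM in depleted libraries. Its groups overlapped through depleted library 1, and its change was 0.19 ± 0.14 (adjusted p = 0.305). COL27A1 passed in 2 of 22 alternatives, among them without that library (0.30, adjusted p = 0.0283).

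COL11A1, a chain of type XI collagen found with type II fibres in cartilage, rose from 0.294, 0.474 and 0.312 CPM to 2.51, 1.85 and 2.10 CPM. This is a change of 2.57 ± 0.28 (adjusted p = 0.000236) at a low level: the controls rest on 13 to 21 counts and the depleted libraries on 63 to 88. COL11A2 lay between 1.40 and 2.10 CPM and was not called. COL2A1, COL3A1 and COL24A1 were not tested, with at most 14 counts in any library, and COL2A1 had 1 count in 2 libraries and none in the other 4.

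**Figure D2:**
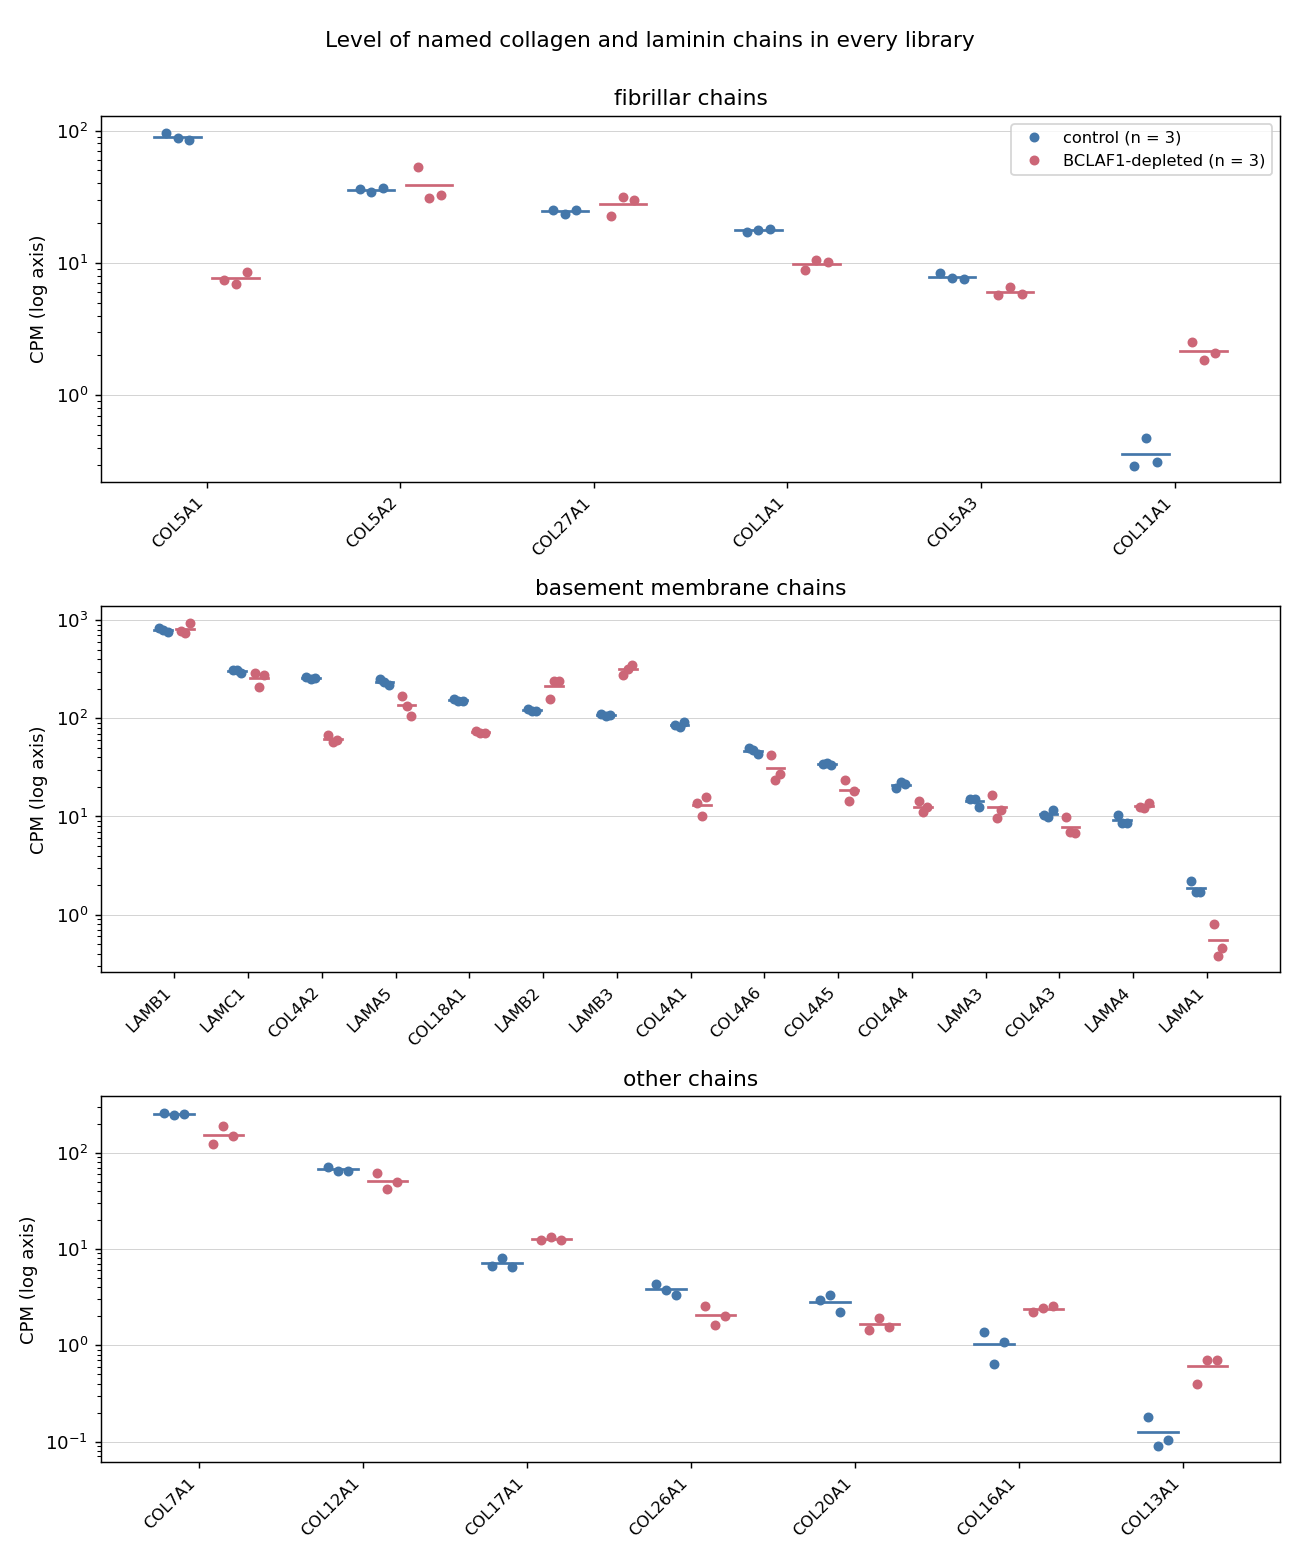
CPM on a log axis for the chains described here that passed the test or averaged at least 5 CPM, with 3 control points, 3 BCLAF1-depleted points and a bar at each mean. COL5A1, COL4A1, COL4A2 and LAMB3 show wide gaps between the groups, and LAMB1, LAMC1 and COL5A2 overlap.

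Among the basement membrane chains 18 of 20 were tested, of which 4 rose, 8 fell and 6 did not pass, with a median of -0.41. The rises, 22.2% of the 18, were near the 17.8% of all genes, and the falls, 44.4%, stood beside 18% of all genes. The 4 that rose were all laminins, and 6 of the 8 that fell were collagens. All 6 type IV chains lay below the controls in every depleted library, as 26.6% of all tested genes did, and 5 of them passed the test.

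COL4A1 and COL4A2, the chains of the type IV network found in nearly all basement membranes, fell most. COL4A1 was at 84.7, 81.1 and 91.0 CPM in controls and at 13.8, 10.2 and 15.7 CPM in depleted libraries, a change of -2.69 ± 0.16 (6.47-fold, adjusted p = 8.447e-06). COL4A2 was at 266, 250 and 257 CPM in controls and at 68.3, 57.0 and 60.2 CPM in depleted libraries, a change of -2.06 ± 0.13 (4.17-fold, adjusted p = 1.052e-05). Both groups of values were tight and far apart. The loss was uneven: the FPKM ratio of COL4A1 to COL4A2 was 0.269, 0.274 and 0.299 in controls and 0.171, 0.151 and 0.219 in depleted libraries, lower in each (exact permutation p = 0.1).

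These genes sit head to head on chromosome 13, COL4A1 on the minus strand (chr13:110148963-110307233) and COL4A2 on the plus strand (chr13:110305812-110513209). Their RefSeq starts lie 127 bases apart, so that a shared stretch precedes both. The 126 bases between these starts (GRCh38.p14, chr13:110307158-110307283, plus strand) are shown because both genes that leave it fell. Capitals mark a CCAAT box and a GC box:
COL4A1 and COL4A2: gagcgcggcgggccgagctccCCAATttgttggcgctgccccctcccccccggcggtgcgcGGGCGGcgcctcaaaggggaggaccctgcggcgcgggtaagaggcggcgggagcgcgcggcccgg

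The other type IV chains are paired in the same way. COL4A5 and COL4A6, on chromosome X with their nearest RefSeq starts 380 bases apart, code for chains of epithelial basement membranes. COL4A5 went from 34.7, 35.1 and 33.4 CPM to 23.5, 14.4 and 18.0 CPM, a change of -0.88 ± 0.17 (adjusted p = 0.00389). COL4A6 went from 49.5, 47.9 and 43.6 CPM to 42.0, 23.5 and 27.4 CPM, a change of -0.60 ± 0.19 (adjusted p = 0.0347). In both, depleted library 1 was the nearest to the controls. The COL4A6 call was not firm: it was lost in 8 of 22 alternatives, with an adjusted p of up to 0.204. Its adjusted p was 0.0668 once the trend with GC content and length was removed. It ran from 0.0724 to 0.111 without control library 1, 2 or 3 or depleted library 2 or 3.

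COL4A3 and COL4A4, on chromosome 2 with starts 419 bases apart, encode chains best known from kidney and lung basement membranes. COL4A4 went from 19.7, 22.4 and 21.4 CPM to 14.5, 11.03 and 12.4 CPM, a change of -0.75 ± 0.14 (adjusted p = 0.00346). COL4A3 went from 10.3, 9.97 and 11.5 CPM to 9.81, 6.95 and 6.84 CPM, which gave -0.43 ± 0.17 and missed the threshold (adjusted p = 0.069). COL4A3 passed in 5 of 22 alternatives, among them without depleted library 1, the one closest to the controls (-0.64, adjusted p = 0.00352). No test of the difference between these pairs was made. Type IV chains together summed to 66.9, 64.0 and 66.3 FPKM in controls and 22.8, 14.1 and 14.2 FPKM in depleted libraries.

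COL18A1, whose C-terminal fragment is endostatin, was at 158, 150 and 151 CPM in controls and at 74.1, 70.4 and 71.0 CPM in depleted libraries. The groups were tight, and it fell by 1.09 ± 0.11 (adjusted p = 0.00017). Of its exon bases 16.4% overlap SLC19A1 on the opposite strand. The strand setting of the counting is not given, and SLC19A1 moved by 0.29 ± 0.15 (adjusted p = 0.154). COL15A1, the related chain, was at 0.293 CPM or less and was not tested.

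**Figure D3:**
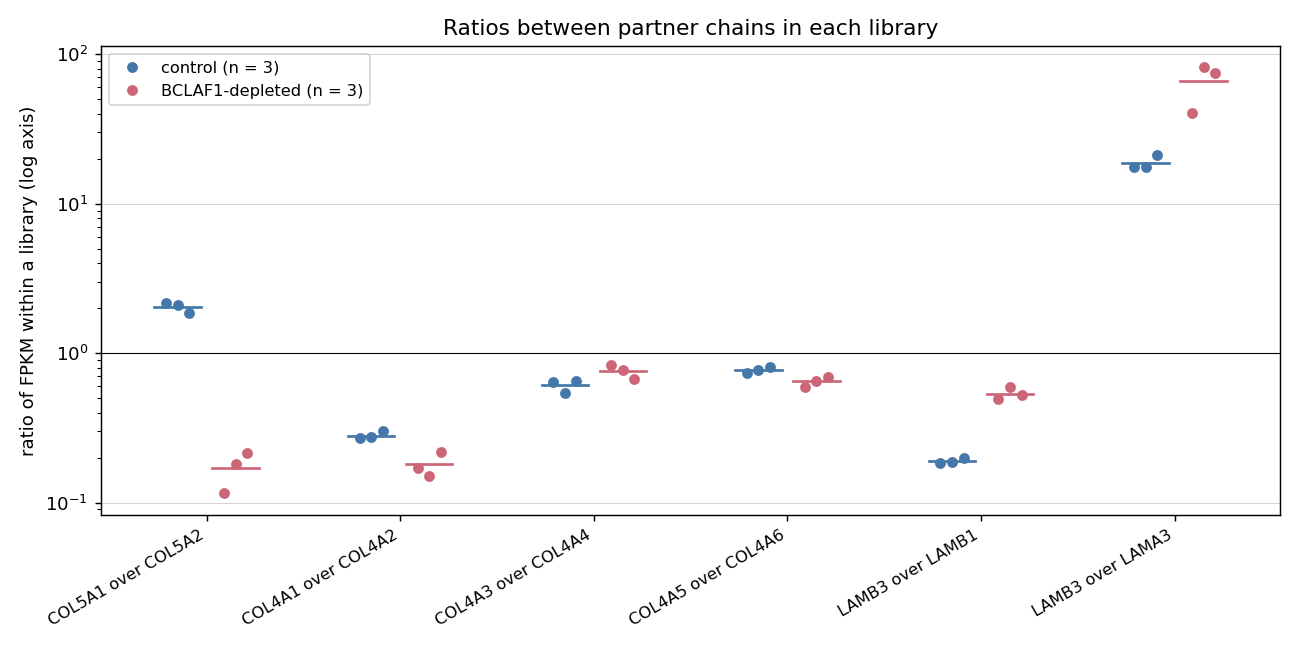
Ratio of FPKM between partner chains inside each library, on a log axis, with a bar at each mean and a line at 1. COL5A1 over COL5A2 crosses from above 1 in controls to below 1 in depleted libraries, and LAMB3 over LAMA3 rises in each depleted library.

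Laminin chains moved in both directions. LAMB3, the beta chain of the epithelial anchoring laminin, rose most: it was at 110, 106 and 108 CPM in controls and at 274, 320 and 353 CPM in depleted libraries. Each depleted library exceeded each control by more than 2-fold, and the change was 1.55 ± 0.14 (2.92-fold, adjusted p = 7.031e-05). LAMA3, the alpha chain of the same trimer, did not: it was at 15.2, 14.9 and 12.6 CPM in controls and at 16.6, 9.56 and 11.6 CPM in depleted libraries. LAMA3 gave -0.18 ± 0.19 (adjusted p = 0.489), and without depleted library 1, its highest value, it gave -0.45 (adjusted p = 0.0223).

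The proportion of these chains within a library also differed. LAMB3 over LAMA3 in FPKM was 17.7, 17.5 and 21.1 in controls and 40.7, 81.9 and 75.4 in depleted libraries, without overlap. LAMB3 over LAMB1 was 0.183, 0.186 and 0.2 in controls and 0.49, 0.592 and 0.521 in depleted libraries, so LAMB3 also gained on the most abundant beta chain (exact permutation p = 0.1 for each ratio).

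LAMB3 lies on the minus strand at chr1:209614870-209652466. RefSeq gives 3 start windows for it, and the 250 bases before 1 of these starts (GRCh38.p14, chr1:209651375-209651624, minus strand) are shown because LAMB3 rose most among the well-expressed chains and because this was the only window of a called chain with a match to the AP-1 site (TGANTCA). Capitals mark, in order, a CCAAT box on the other strand, the AP-1 match and a GC box:
LAMB3: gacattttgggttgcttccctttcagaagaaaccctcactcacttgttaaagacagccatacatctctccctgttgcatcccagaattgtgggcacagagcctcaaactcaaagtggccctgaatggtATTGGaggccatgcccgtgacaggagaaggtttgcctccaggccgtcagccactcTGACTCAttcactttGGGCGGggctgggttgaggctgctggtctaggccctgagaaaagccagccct

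The widely expressed laminin chains behaved otherwise. LAMB1 was the most abundant chain of all in both groups, at 830, 791 and 750 CPM in controls and at 776, 749 and 939 CPM in depleted libraries, with overlap and a change of 0.06 ± 0.15 (adjusted p = 0.796) whose sign turned under other scalings. LAMC1, the usual gamma chain, was at 312, 311 and 287 CPM in controls and at 288, 210 and 277 CPM in depleted libraries (-0.23 ± 0.15, adjusted p = 0.25). LAMC1 overlapped between the groups through depleted library 1, although it passed as lower in 3 of 22 alternatives, among them FPKM (-0.52, adjusted p = 0.0369). LAMB2, a beta chain of muscle and kidney laminins, went from 126, 119 and 119 CPM to 157, 240 and 242 CPM. Library 1 rose least, and the change was 0.81 ± 0.17 (adjusted p = 0.00614).

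LAMA5, the main alpha chain of these cells, fell from 252, 233 and 217 CPM to 171, 132 and 106 CPM. The groups did not overlap, and the change was -0.78 ± 0.18 (adjusted p = 0.00836). That call was lost when depleted library 2 was left out of the fit corrected for GC content and length (-0.58, adjusted p = 0.0874). LAMA4, a chain of vascular laminins, rose slightly from 10.3, 8.52 and 8.54 CPM to 12.4, 12.1 and 13.6 CPM (0.48 ± 0.14, adjusted p = 0.0218). The LAMA4 rise did not pass with library totals as the only scaling (0.25, adjusted p = 0.311), in FPKM (0.10, adjusted p = 0.447), or without control library 2 (0.43, adjusted p = 0.115) or 3 (0.43, adjusted p = 0.1). LAMA1, the embryonic alpha chain, fell from 2.19, 1.71 and 1.68 CPM to 0.798, 0.381 and 0.462 CPM, a change of -1.76 ± 0.30 (adjusted p = 0.00271) on 13 to 28 counts in the depleted libraries. An antisense gene shares 10.3% of the LAMA1 exon bases. LAMA2 and LAMC3 lay below 2 CPM and were not called. LAMC3 gave 0.34 (adjusted p = 0.386), and passed without depleted library 3 in the fit corrected for GC content and length (0.70, adjusted p = 0.0448). LAMB4 was not tested.

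As shares of the summed FPKM of their class, the make-up of the laminin chains shifted. LAMB1 supplied 73.8% ± 0.733 of the beta chain level in controls and 55.2% ± 3.47 in depleted libraries, while LAMB3 went from 14.0% ± 0.513 to 29.4% ± 1.02. LAMA5 went from 88.2% ± 0.148 of the alpha level to 80.1% ± 3.45. Each of these 3 shares was without overlap between the groups (SD, n = 3, exact permutation p = 0.1 for each). The summed alpha level fell from 22.4 ± 1.63 to 11.9 ± 4.11 FPKM, whereas the summed beta level rose from 166 ± 6.15 to 187 ± 5.32 FPKM.

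**Figure D4:**
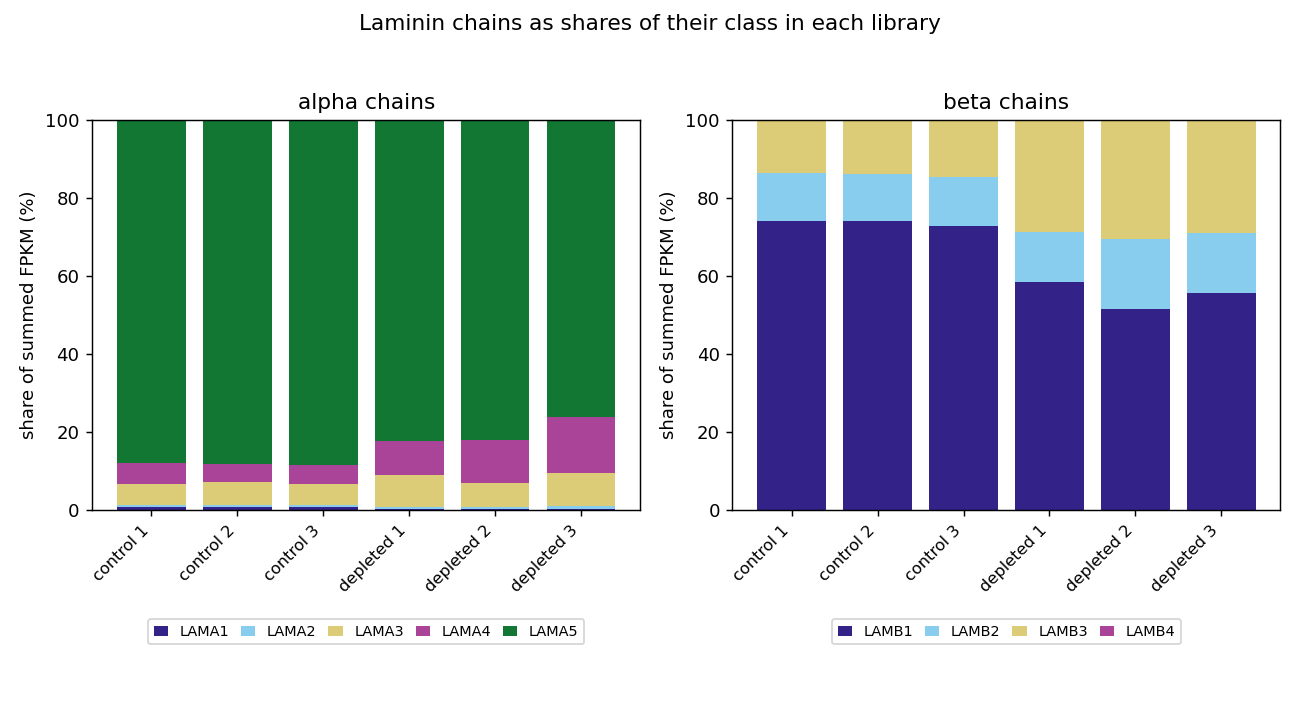
Stacked bars of each laminin chain as a percent of the summed FPKM of its class, in each of the 6 libraries, for alpha and beta chains. The LAMB3 segment spans 13.6% to 14.6% in controls and 28.7% to 30.6% in depleted libraries, and LAMA5 dominates the alpha chains throughout.

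Among the 24 other chains 11 were tested, of which 3 rose, 3 fell and 5 did not pass, with a median of -0.07. Each count is 27.3% of the 11, beside 17.8% higher and 18% lower over all genes. COL7A1, the anchoring fibril chain below epithelia, was the most abundant of them, at 258, 246 and 250 CPM in controls and at 124, 187 and 149 CPM in depleted libraries. The depleted libraries were scattered but all below the controls, a change of -0.71 ± 0.16 (adjusted p = 0.00797). COL17A1, the transmembrane collagen of hemidesmosomes, moved the other way, from 6.58, 8.07 and 6.53 CPM to 12.3, 13.2 and 12.3 CPM, a rise of 0.83 ± 0.14 (adjusted p = 0.00225). In FPKM that rise was 0.31 on the log2(FPKM + 1) scale and did not pass (adjusted p = 0.051). Of the chains of epithelial anchoring, LAMB3 and COL17A1 thus rose, COL7A1 fell and LAMA3 was not called.

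COL12A1, a collagen of the fibril-associated kind, was at 71.7, 65.0 and 63.9 CPM in controls and at 60.9, 41.8 and 49.4 CPM in depleted libraries. These did not overlap, and -0.40 ± 0.15 missed the threshold (adjusted p = 0.0567) but passed in 10 of 22 alternatives, among them scaling by library totals, the DESeq2 and limma-voom tests and FPKM, and without depleted library 1 (-0.57, adjusted p = 0.00314). The remaining calls in this group concerned low levels. COL16A1, a fibril-associated collagen, rose from 1.36, 0.631 and 1.08 CPM to 2.19, 2.43 and 2.56 CPM (1.22 ± 0.27, adjusted p = 0.00823). COL13A1, a transmembrane collagen, rose from 0.181, 0.0902 and 0.104 CPM to 0.399, 0.704 and 0.709 CPM (2.24 ± 0.44, adjusted p = 0.00468), on 4 to 8 counts in the controls and 14 to 24 in the depleted libraries. COL13A1 was near the floor in the controls, and its SE was the largest among the called chains.

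COL26A1 fell from 4.28, 3.77 and 3.33 CPM to 2.54, 1.61 and 2.003 CPM (-0.88 ± 0.21, adjusted p = 0.0106), a call lost without control library 1 (-0.79, adjusted p = 0.054). COL20A1 fell from 2.92, 3.31 and 2.20 CPM to 1.45, 1.94 and 1.54 CPM (-0.77 ± 0.22, adjusted p = 0.0235). The COL20A1 call was lost in 6 of 20 alternatives: without control library 1 (-0.75, adjusted p = 0.0813), control library 2 (-0.64, adjusted p = 0.109) or depleted library 3 (-0.73, adjusted p = 0.0547), and, with the GC and length trend removed, without any 1 of the depleted libraries (adjusted p from 0.0539 to 0.0818). Type VI collagen, which forms beaded filaments, was low: COL6A1 was at 3.33 to 3.78 CPM in controls and 4.49 to 5.15 CPM in depleted libraries (0.43 ± 0.16, adjusted p = 0.0528). COL6A1 passed in 5 of 20 alternatives, among them without depleted library 2 (0.49, adjusted p = 0.0493) and with the GC and length trend removed (adjusted p = 0.0401). COL6A2, COL6A3 and COL9A3 lay between 0.352 and 2.99 CPM and were not called. The 13 untested chains of this group (COL6A5, COL6A6, COL8A1, COL8A2, COL9A1, COL9A2, COL14A1, COL19A1, COL21A1, COL22A1, COL23A1, COL25A1 and COL28A1) had at most 14 counts in any library.

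Compared per length in the authors' FPKM, the order of the chains differed between the groups. In the controls the highest were LAMB1 (123), COL4A2 (39.6), LAMC1 (37.1), COL7A1 (26.2) and LAMB3 (23.3). The place of COL4A2 differed between scales: in CPM per kilobase of all its annotated exons it was at 13.4, against 36.1 for LAMC1, and stood at rank 8 in controls and 11 in depleted libraries. COL18A1 (21.7), LAMB2 (20.3) and LAMA5 (19.8) followed, and LAMA5 overlapped with both of the others. In the depleted libraries the order was LAMB1 (104), LAMB3 (55.1), LAMB2 (28.7), LAMC1 (26.0) and COL7A1 (12.97). LAMB2 and LAMC1 overlapped there, and so did COL7A1 and LAMA5, which came next at 9.65. COL4A2 stood at rank 8 with 7.85 FPKM, but its values overlapped with those of LAMA5, COL18A1 and COL5A2. COL5A1 went from 10.1 to 0.703 FPKM.

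The chains are long and GC-rich. The 37 tested chains had a median exon length of 9269 bases and 58.93% GC, against 4525 bases and 48.59% for all tested genes. Of the 37, 24 were among the genes with at least 7812 exon bases, the longest quantile of 5, where 30.1% of genes were lower, 10.3% were higher and the median log2 fold change was -0.19. With the trend of counts on length and GC content removed, 9 chains were higher and 12 lower, and their median was -0.10. In that fit 17.8% of all genes were higher and 16.2% lower, with a median of 0.02. COL4A6 then lost its call and COL6A1 gained 1, while COL5A1 (-3.42), COL4A1 (-2.56), COL4A2 (-1.92) and LAMB3 (1.53) kept theirs.

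**Figure D5:**
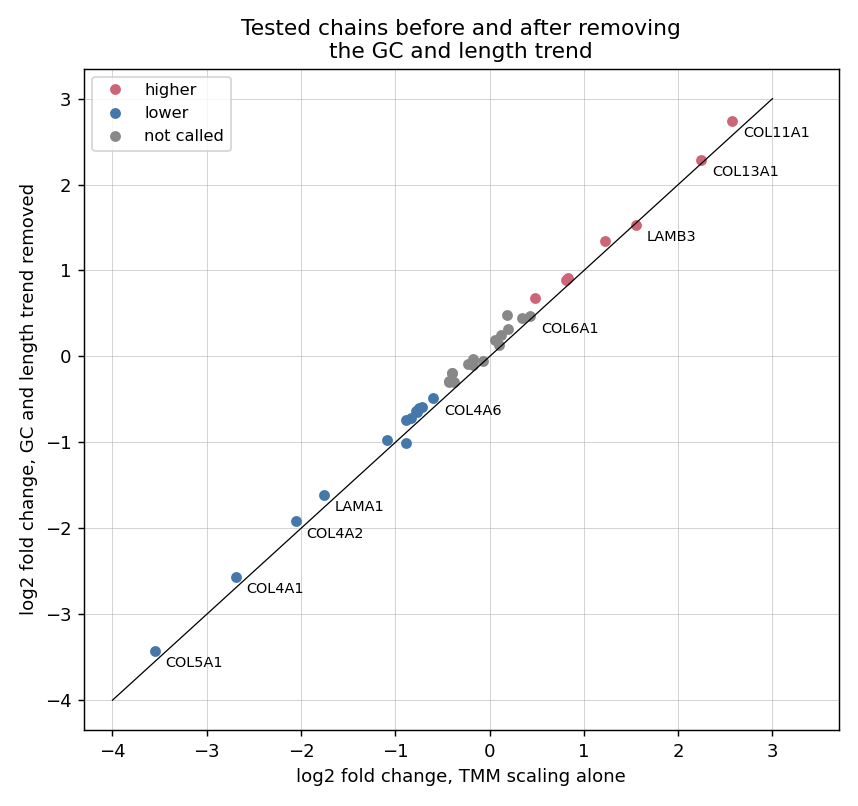
Log2 fold change of the tested chains described here with TMM scaling alone (x axis) and with the GC and length trend also removed (y axis), coloured by its call on the x axis, with the line of equality. Most chains lie slightly above the line, and none of the called chains changes sign.

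RefSeq held promoter windows, from 250 bases before to 50 after a start, for 40 of the 55 chains and for 28 of the 37 tested ones. A GC box (GGGCGG) was found in 20 of these 28 (71.4%), where 48.3% of the 27305 genes with a window have 1 or more. It was found in 7 of 10 chains that fell, 4 of 7 that rose and 9 of 11 not called. A CCAAT box was in 9 of 28 (32.1%, against 39.7% of genes), a TATA box (TATAAA) in 5 (17.9%, against 14% of genes) and an AP-1 site in 2, LAMB3 and LAMA3 (7.14%, against 9.37% of genes). Each motif was searched on both strands. The shares of genes cover all genes with a window, whether or not they were tested here, while the 28 chains were all tested. A match describes the letters only.

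Genes that act on collagen and laminin chains were taken from 6 lists. In the endoplasmic reticulum collagen chains are hydroxylated, glycosylated and folded. Of 16 tested genes of that list, 1 rose, 3 fell and 12 were not called (median -0.23). The 18.8% that fell are close to the 18% of all genes, and the 6.25% that rose are below the 17.8%. P4HA3, an alpha subunit of prolyl 4-hydroxylase, fell from 15.8, 16.3 and 15.8 CPM to 2.37, 3.64 and 3.05 CPM (-2.40 ± 0.17, adjusted p = 1.944e-05). P4HA2, another such subunit, fell by 0.53 ± 0.11 (adjusted p = 0.00646). The lysyl hydroxylase PLOD1 fell by 0.38 ± 0.12 (adjusted p = 0.0345). The prolyl isomerase PPIB rose by 0.70 ± 0.19 (adjusted p = 0.0163). PPIB lost its call without any 1 of the controls (adjusted p from 0.0672 to 0.0757) and with the GC and length trend removed (0.40, adjusted p = 0.0804), and PLOD1 lost its call without any 1 control, depleted library 2 or depleted library 3 (adjusted p from 0.0628 to 0.135). SERPINH1, the collagen chaperone, was not called (-0.21, adjusted p = 0.302).

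Export from the endoplasmic reticulum and removal of the propeptides form the next steps. Of 12 tested genes none rose, where 17.8% of all genes did, and 6 (50%) fell, where 18% did (median -0.49). The procollagen C-proteinases TLL1 and BMP1 both fell: TLL1 from 20.3, 21.3 and 22.8 CPM to 7.38, 4.34 and 5.79 CPM (-1.88 ± 0.18, adjusted p = 0.000121), and BMP1 from 76.8, 72.3 and 67.4 CPM to 40.5, 40.4 and 47.3 CPM (-0.76 ± 0.12, adjusted p = 0.00181). The coat proteins of transport vesicles SEC24D (-1.01 ± 0.25, adjusted p = 0.0121) and SEC23A (-0.63 ± 0.17, adjusted p = 0.0161) also fell. With the GC and length trend removed, 3 of the 11 genes then tested were lower, SEC23A not among them (adjusted p = 0.0536). MIA2, an export receptor called as lower in the uncorrected fit (-1.10, adjusted p = 0.00451), had no annotated length and was not tested there. SEC24D missed the threshold without depleted library 2 (adjusted p = 0.0562), and SEC23A without any 1 of the controls (adjusted p from 0.0504 to 0.0603). Of the cross-linking enzymes 3 of 7 were tested, of which none rose and 1 (33.3%) fell, beside 17.8% and 18% of all genes. TGM2, the tissue transglutaminase, fell from 761, 776 and 828 CPM to 315, 187 and 219 CPM (-1.71 ± 0.20, adjusted p = 0.000313), LOXL2 was not called, and LOX, LOXL1, LOXL3 and LOXL4 were too low to test.

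Of 10 tested partners of the chains in basement membranes, 1 (10%) rose and 6 (60%) fell, beside 17.8% and 18% of all genes (median -0.55). NID2, a nidogen that links laminin to type IV collagen, fell from 169, 168 and 169 CPM to 59.8, 37.6 and 48.7 CPM (-1.79 ± 0.17, adjusted p = 9.13e-05). FBLN1, a fibulin, fell from 72.3, 71.6 and 74.2 CPM to 23.2, 29.5 and 27.9 CPM (-1.44 ± 0.13, adjusted p = 6.19e-05), and SMOC1 fell by 0.57 ± 0.11 (adjusted p = 0.0047). NTN4, a laminin-related netrin, rose from 28.1, 30.7 and 35.3 CPM to 56.9, 39.2 and 61.1 CPM (0.74 ± 0.17, adjusted p = 0.00949), but did not pass with library totals alone (0.51, adjusted p = 0.0628) or in FPKM (0.39, adjusted p = 0.123). Of 13 tested genes of fibril-associated matrix none rose and 5 (38.5%) fell, beside 17.8% and 18% of all genes (median -0.35). VCAN, a large proteoglycan, fell from 331, 320 and 325 CPM to 68.2, 47.9 and 56.1 CPM (-2.50 ± 0.16, adjusted p = 1.052e-05). FBN2 (-2.14 ± 0.21), FN1, which is fibronectin (-1.37 ± 0.17), and TGFBI (-0.87 ± 0.15) also fell, each without overlap between the groups.

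Of 17 tested receptors for collagen and laminin 2 (11.8%) rose, 4 (23.5%) fell and 11 were not called, near the 17.8% and 18% of all genes (median -0.15). MRC2, an endocytic receptor for collagen, fell from 75.2, 67.1 and 76.2 CPM to 28.5, 29.03 and 24.3 CPM (-1.42 ± 0.12, adjusted p = 6.19e-05). ITGA6, the laminin-binding integrin subunit, fell from 79.8, 80.7 and 76.4 CPM to 65.1, 46.5 and 39.4 CPM (-0.65 ± 0.17, adjusted p = 0.0162). DDR1, a collagen-binding receptor kinase, rose by 0.57 ± 0.15 (adjusted p = 0.0177), and the syndecan SDC4 rose by 0.44 ± 0.12 (adjusted p = 0.0184). The integrin subunits ITGA1 (-2.03 ± 0.24, adjusted p = 0.000371) and ITGA2 (-0.78 ± 0.22, adjusted p = 0.0198) also fell, each under 5 CPM on average. They were not followed singly through the alternatives. The smaller changes of ITGA6, DDR1 and SDC4 were not firm. ITGA6 missed the threshold without control library 1 or 2 or depleted library 2 (adjusted p from 0.0545 to 0.0634). DDR1 missed it without any 1 of the controls (adjusted p from 0.0574 to 0.0856) and with library totals alone (0.32, adjusted p = 0.104). SDC4 missed it without any 1 of the controls (adjusted p from 0.0776 to 0.0882), with library totals alone (0.22, adjusted p = 0.38) and with the GC and length trend removed (0.27, adjusted p = 0.079).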

How the data were processed

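Polyadenylated RNA of 3 control and 3 BCLAF1-depleted A549 libraries was compared. Groups follow the labels, whose sample names write "si" where the protocol describes lentiviral hairpins. The authors deposited whole-number read counts for 29122 genes, not normalized, and FPKM values for 28878 genes, which lack 2 of the 55 chains. Per the submitters' processing notes bcl2fastq, TopHat2, edgeR and GRCh38 were used. Neither their roles and versions nor the annotation release or strand setting of the counting could be read from these notes.

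The test was that of edgeR 4.0.16 under R 4.3.3 (glmQLFit and glmQLFTest, TMM, group as the only term) on the 15907 genes that filterByExpr kept (minimum count 10, minimum total 15), with Benjamini-Hochberg adjustment over all of them and a threshold of 0.05. CPM use TMM library sizes, and the depths in the report use library totals. SE is the log2 fold change over the root of its F value. FPKM were used for levels per length, ratios, shares and sums. Length and GC content came from GENCODE release 29 (15775 tested genes, 99.2%), and their trend was removed with mgcv 1.9.3 (basis size 8) as an offset. Promoters are RefSeq's. Scripts were tested on simulated counts.

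The chains, their groups and the gene lists were chosen with earlier results of these data known. Every tested chain past the threshold or with a mean of at least 5 CPM is given in each library, except that 1 chain, counted in the totals, is not reported here. Per list, up to 4 called genes of at least 5 CPM with the largest changes are named. SERPINH1, LOXL2, MIA2, ITGA1, ITGA2, the untested LOX genes and the epithelial and endothelial markers with values were named after their values were seen. Alternatives were other scalings, filters, thresholds, DESeq2 1.42.0, limma-voom and limma on FPKM (limma 3.58.1), the replicate block, the trend correction and leaving out each library.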

Additional observations from a re-analysis of the deposited data

How the results depend on the processing

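Of the 21 called chains, 15 kept their direction and call under every alternative that tested them, apart from the stricter thresholds. Of these 15, COL11A1, COL13A1, COL16A1 and LAMA1 were too low to be tested with at least 5 CPM or at least 1 FPKM in 3 libraries. The 6 called chains that lost a call (COL4A6, COL20A1, LAMA4, COL17A1, COL26A1, LAMA5) are named where they are described. The cause of the shifts below was not tested, except that stricter filters test fewer genes and stricter thresholds call fewer. With at least 5 CPM in 3 libraries, 5 of the 23 chains then tested were higher, of which 0 fibrillar and 1 other. There 10 chains were lower, of which 1 other, beside 20.3% higher and 20.4% lower over all genes. On log2(FPKM + 1) with at least 1 FPKM in 3 libraries, 4 of the 24 chains then tested were higher, of which 0 fibrillar and 1 other. There 15 chains were lower, beside 7.34% higher and 33% lower over all 11301 genes tested. With a change of at least 2-fold, 5 chains were higher and 5 lower, namely 2 higher and 4 lower in basement membranes, 1 lower fibrillar and 0 lower other. At an adjusted p under 0.01, 1 other chain was lower. The shares of all genes past these stricter thresholds are not given. The counts at these thresholds, here and for the lists below, therefore have no background to be read against. Library totals alone moved the median of all genes from 0.02 to -0.21, with 8.07% of genes higher and 23% lower, and gave the chains a median of -0.45.

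Over fits without 1 library, with and without the trend correction, 7 to 9 chains were higher and 10 to 17 lower, 17 without depleted library 1. Over the same fits 8.51% to 23% of all genes were higher and 9.53% to 25.8% lower, 23% and 25.8% without depleted library 1, against 17.8% and 18%. Fibrillar chains had 1 to 2 higher and other chains 1 to 4 lower. In the lists the same fits gave 0 to 3 receptors higher and 2 to 5 lower, 0 to 1 export genes higher and 2 to 7 lower, 0 to 1 hydroxylation and folding genes higher and 2 to 7 lower, 1 to 2 cross-linking genes lower and 0 to 2 fibril-associated genes higher.

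Other settings moved the list counts, and the shares of all genes called differed too. Of all genes 8.07% were higher and 23% lower with library totals, and 17.8% and 16.2% with the trend removed. On log2(FPKM + 1) the shares were 7.11% and 28%, and 7.34% and 33% with at least 1 FPKM in 3 libraries. Partners higher were 0 with library totals, FPKM or 2-fold, and partners lower were 3 with 2-fold. Receptors higher were 1 with the trend removed, with or without the block, and 0 with library totals, FPKM or stricter thresholds. Receptors lower were 7 in FPKM and 2 under stricter thresholds. Export genes lower were 3 with the trend removed, of 11 tested there against 12, and under stricter thresholds. Hydroxylation and folding genes higher were 0 with the trend removed, in FPKM and under stricter thresholds. Their lower members were 5 with library totals or the trend removed, 6 in FPKM, 8 in FPKM of at least 1 and 1 with 2-fold. Cross-linking genes lower were 2 in FPKM. Fibril-associated genes higher were 1 with the trend removed, and lower were 3 with 2-fold.

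Signs turned only for chains that were not called. With library totals alone COL1A2 was at -0.0562, COL27A1 at -0.0507, COL5A2 at -0.0757, COL6A2 at -0.128 and LAMB1 at -0.183. On log2(FPKM + 1) they were at -0.009, -0.0866, -0.168, -0.0642 and -0.243, also with at least 1 FPKM where still tested, and on log2(FPKM + 0.1) at -0.0566, -0.113, -0.213, -0.161 and -0.245. Without 1 library COL9A3 ran from -0.383 to 0.091, COL1A2 from -0.0025 to 0.383, COL5A2 from -0.189 to 0.253 and LAMB1 from -0.0542 to 0.117. With the trend also removed COL9A3 reached 0.142 and 0.0422, COL5A2 -0.0025, LAMA3 0.121 and 0.0197, and LAMC1 0.0264.

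Whether replicate numbers pair the libraries was not settled. With group means removed, same-numbered libraries had low correlations of 0.036, 0.047 and 0.119 over 15907 genes, although each correlated best with its own number. With the number as a block 8 chains were higher and 14 lower, and 1 export gene was higher. In that fit 18.1% of all genes were higher and 19.6% lower. The correction without each depleted library was chosen after seeing the data.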
